A study of Mus musculus with 6 samples.

Results

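Endothelial marker genes are the transcripts by which the lining cells of blood and lymphatic vessels are recognised in tissue. They were followed here in RNA-seq libraries from 6 mouse mammary tumors. The set was a list of 37 gene symbols chosen by name for known roles in endothelium, and no measured value entered its rule. It was, however, chosen with earlier results of these data known, so counts over the list are descriptive. Of these, 36 matched 1 identifier each among the 54232 in the count files, through the GENCODE M21 annotation of GRCm38, and Roro1 matched none. A filter on low counts kept 34 of the 36 among 16752 genes, leaving out Mmrn1 and Sele. Ackr1 reached the filter's minimum in 3 fx/fx libraries and in 0 wt/wt libraries, so it was kept only because of the group in which it was high.

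All mice carried NIC, a transgene whose promoter, taken from mouse mammary tumor virus and active in mammary epithelium, drives an activated form of the ErbB2 (Neu) receptor together with Cre recombinase. The comparison was between 3 libraries labelled CdGAP wt/wt, with both copies of the gene intact, and 3 labelled CdGAP fx/fx, with both copies flanked by sites that Cre can recombine. CdGAP is the product of Arhgap31, a GTPase-activating protein that turns off Cdc42 and Rac1 and that is also known from work on blood vessel development. The transgene's promoter is not a vessel promoter, and recombination in endothelial cells was not measured. Ages and the numbers of mice and tumors behind each library are not given in the sources used here. Because no label states that the 3 libraries of a genotype are from different animals, the p-values reflect only variation among these libraries, which may be technical. By their labelled replicate numbers, the wt/wt libraries are named wt1 to wt3 and the fx/fx libraries fx1 to fx3, and values are given in that order.

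Endothelial cells form the inner wall of vessels, held together by junction proteins such as VE-cadherin and PECAM-1. Their growth is driven by VEGF and angiopoietin ligands acting on the VEGF and Tie receptors, and their identity by ETS and SOX transcription factors. Lymphatic endothelium arises from venous endothelium under the homeobox factor PROX1, and the endothelium of small veins carries the adhesion proteins through which leukocytes leave the blood. In a solid tumor these cells are a minority, mixed with carcinoma cells, fibroblasts, pericytes and leukocytes. In a bulk library, fewer cells of a type and less RNA per cell cannot be told apart.

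The libraries held between 36732137 (fx2) and 53606276 (fx1) counts, so a gene with a count of 0 could still have up to 3 counts, or between 0.056 and 0.0817 CPM, from counting error alone. CPM are counts per 1000000 counts, scaled by TMM for library composition. Arhgap31 (chromosome 16) stood at 664, 432 and 550 CPM in the wt/wt libraries and at 155, 44.1 and 115 CPM in fx/fx. Every fx/fx library was below every wt/wt library, a 5.22-fold lower mean (log2 fold change -2.38, SE 0.45, n = 3 per genotype, adjusted p = 0.153 by edgeR's quasi-likelihood test and 3.2e-05 by DESeq2). The exact 2-sided permutation test over the 20 orderings of the libraries gave p = 0.1, the smallest it can give. After adjustment over all tested genes edgeR called 0 genes (0.0% of 16752) at an adjusted p under 0.05, and DESeq2 called 504 higher and 327 lower in fx/fx.

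The order of levels is shown in the plot of levels per exon length. Per kilobase of exon, the mean wt/wt level was highest for Plvap (14.7 ± 1.39 CPM per kb, SD, n = 3), the diaphragm protein of fenestrated capillaries. Esm1, a proteoglycan secreted by sprouting tip cells, followed at 10.1 ± 2.59 CPM per kb, and its wt/wt libraries did not overlap those of Plvap. Cdh5, which encodes VE-cadherin, stood at 7.18 ± 0.458 and Apln, the apelin ligand, at 7.12 ± 3.15 CPM per kb, so their order was not resolved. Eng (5.89 ± 0.558), Cd93 (5.67 ± 0.12), Sox18 (5.48 ± 0.606) and Pecam1 (4.88 ± 0.628 CPM per kb) came next, neighbours within their spread. Toward the low end, Lyve1 stood at 0.37 ± 0.0847, Sox17 at 0.222 ± 0.0481, Tal1 at 0.204 ± 0.0524, Ackr1 at 0.152 ± 0.00788, Vwf at 0.131 ± 0.0524 and Selp at 0.129 ± 0.0216 CPM per kb. Sele (0.058 ± 0.026) and Mmrn1 (0.0151 ± 0.0165 CPM per kb) were lowest. Pan-endothelial markers were thus present in all libraries, and the labelled tissue held measurable endothelial RNA in both genotypes.

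**Figure D1:**
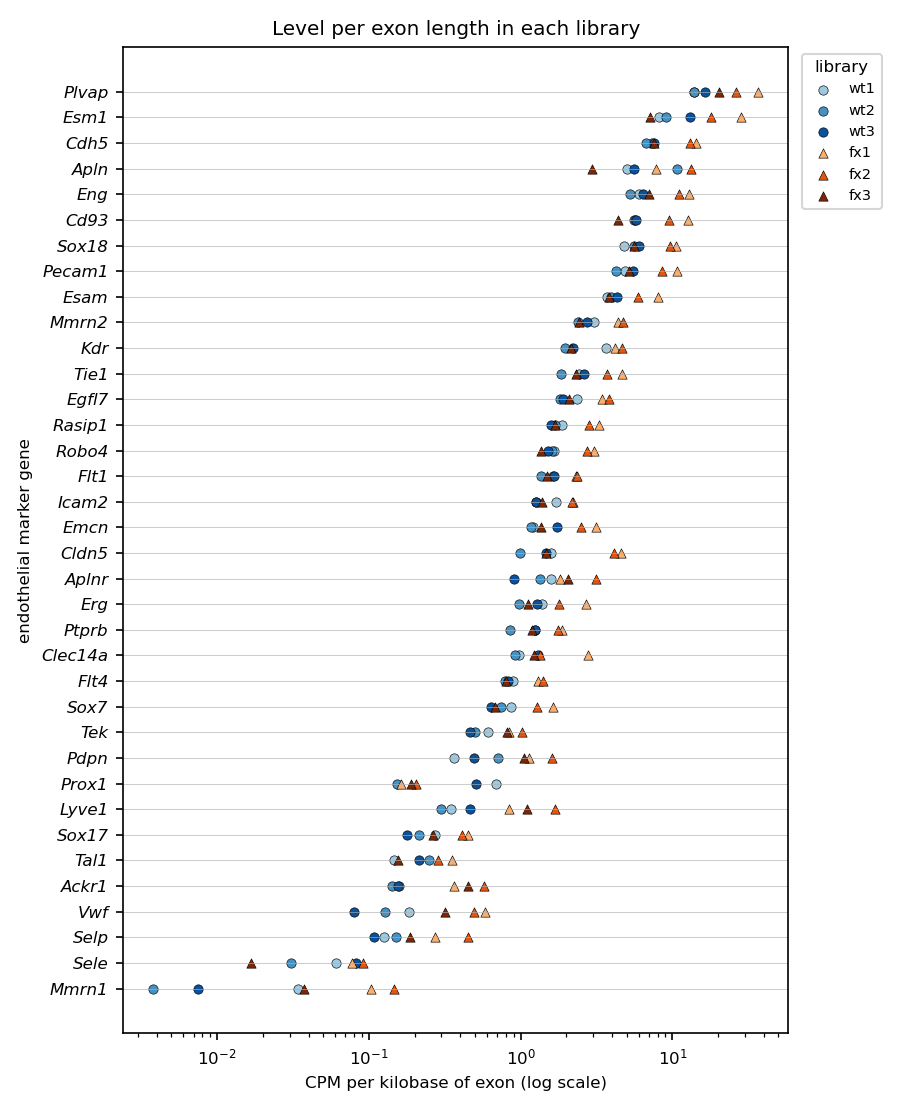
Level of each of the 36 matched endothelial marker genes in each library, in CPM per kilobase of exon on a log axis, ordered by the wt/wt mean (circles wt/wt, triangles fx/fx). Plvap is at the top with a wt/wt mean of 14.7 CPM per kb and Mmrn1 at the bottom with 0.0151 CPM per kb.

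Nearly all of the measured endothelial markers had a higher mean in fx/fx tumors, but the size of the difference rested on fx1 and fx2. The mean CPM was higher in fx/fx for 35 of the 36 matched genes, Prox1 being the exception, against 49.9% of all genes with any count. Of the 34 tested genes, 33 had a log2 fold change above 0 (49.6% of all tested genes), with a median of 0.67 against -0.004 for all tested genes. For 9 of the 34 the genotypes were separated, every fx/fx library lying above every wt/wt library, against 9.74% of all tested genes, and 0 were separated on the lower side (9.93% of all). These 9 were Tek, Eng, Plvap, Vwf, Aplnr, Selp, Ackr1, Lyve1 and Pdpn. Ackr1 passed the filter only through fx/fx, which bears on this count and on that at an unadjusted p below. After adjustment edgeR called 0 of the 34. At an unadjusted p under 0.05, which allows for no multiple testing, 12 were higher (8.18% of all tested genes) and 1, Prox1, was lower (6.04%). By DESeq2, 3 rose, namely Plvap, Vwf and Lyve1 (3.01% of all genes), and 0 fell (1.96%). limma-voom called 0.

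**Figure D2:**
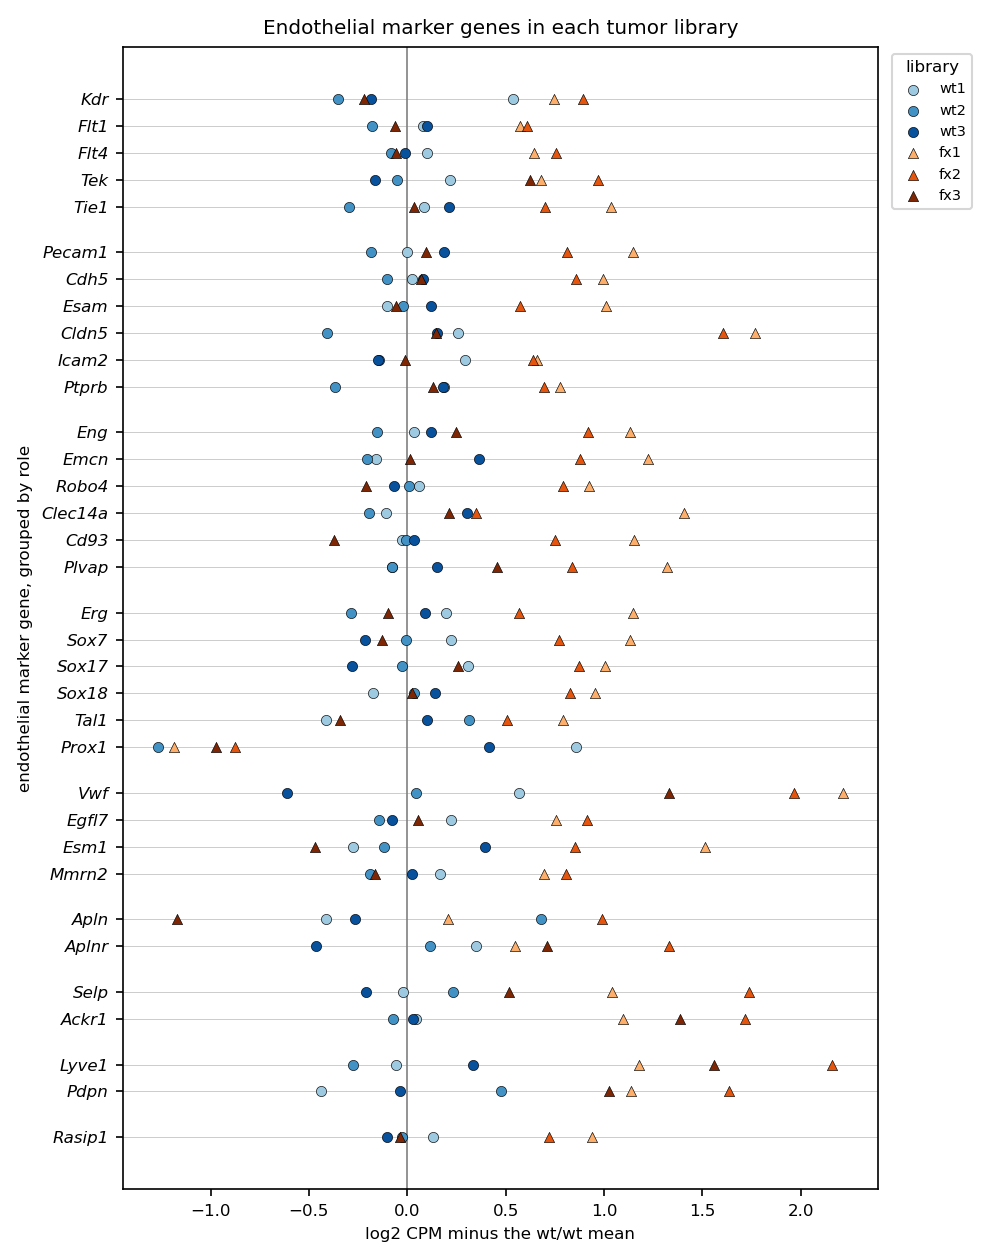
Log2 CPM (prior count 2) of each of the 34 tested endothelial marker genes in each library, minus its wt/wt mean, grouped by role (circles wt/wt, triangles fx/fx). For most genes fx1 and fx2 lie to the right of all wt/wt libraries while fx3 lies among them, and Prox1 lies to the left.

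The library fx3 differed from fx1 and fx2 for most of the list. Both fx1 and fx2 were above every wt/wt library for 32 of the 34 tested genes, with Prox1 and Apln as the exceptions, against 15.3% of all tested genes. In 23 of these genes fx3 did not exceed the highest wt/wt library, a combination found in 5.55% of all tested genes. It was the lowest fx/fx library for 30 genes (31.8% of all tested genes). It lay within the wt/wt range for 21, above it for 9 and below it for 4. The shares of all tested genes for these last counts were not taken. The highest library was fx1 for 21 genes (20.1% of all tested genes), fx2 for 12 (14.6%), fx3 for 0 (17.9%) and wt1 for Prox1 alone (9.86%). This ordering was described after the values were seen. The mean log2 level of the 34 genes, set against the wt/wt mean, was 0.08, -0.10 and 0.02 in the wt/wt libraries and 0.95, 0.92 and 0.13 in fx/fx. Without fx3, the median log2 fold change of the tested genes was 0.93 and edgeR placed 31 genes at an unadjusted p under 0.05 on the higher side (8.31% of all genes in that fit). DESeq2 then called 13 higher (3.94% of all genes in that fit), among them Pecam1, Cdh5, Cldn5, Eng, Emcn, Robo4, Cd93, Sox18, Esm1 and Rasip1. Without fx1 the median was 0.40 and 7 genes were at that unadjusted level (5.55% of all genes in that fit), and without fx2 the median was 0.61 with 6 such genes (8.96%). Without wt1 there were 8 (5.52%), without wt2 8 (6.74%) and without wt3 6 (6.41%).

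The VEGF and Tie receptors, through which endothelial cells receive growth signals, were higher on average in fx/fx for each of the 5 genes. A higher mean was found for 49.9% of all genes with any count. In 1 receptor gene the genotypes did not overlap (9.74% of all tested genes on the higher side). Kdr, the main VEGF receptor of sprouting vessels, measured 32.8, 17.7 and 19.9 CPM in the wt/wt libraries and 37.9, 41.9 and 19.3 CPM in fx/fx. Its genotypes overlapped, wt1 lying near fx1 and fx3 among the lower wt/wt values (log2 fold change 0.50, SE 0.36, edgeR adjusted p = 0.575). Flt1, a VEGF receptor that also acts as a decoy, gave 22.1, 18.5 and 22.4 CPM against 31.1, 32.0 and 20 CPM (0.40, SE 0.23, edgeR adjusted p = 0.492). For Kdr and Flt1 alike, fx3 lay within the wt/wt range. Flt4, the VEGF-C receptor of lymphatic and sprouting endothelium, gave 7.35, 6.47 and 6.81 CPM against 10.7, 11.6 and 6.59 CPM (0.49, SE 0.30, edgeR adjusted p = 0.508). Tie1, an orphan receptor that pairs with TIE2, gave 11.8, 9.08 and 12.9 CPM against 22.9, 18.1 and 11.4 CPM (0.63, SE 0.31, edgeR adjusted p = 0.407). Tek, the angiopoietin receptor TIE2, was the receptor with separated genotypes. It measured 2.86, 2.37 and 2.18 CPM in wt/wt and 3.95, 4.84 and 3.81 CPM in fx/fx, means of 2.47 ± 0.349 and 4.2 ± 0.562 (SD, n = 3). The difference in Tek, 1.70-fold, had a log2 value of 0.77 with an SE of 0.31 (edgeR unadjusted p = 0.0418, adjusted p = 0.331). Tek and Tie1 lie on chromosome 4, where the median expressed protein-coding gene stood at -0.70 in fx1, -0.12 in fx2 and -0.82 in fx3 relative to the wt/wt mean on the log2 scale.

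Junction and adhesion genes were higher on average in fx/fx for 6 of 6 (49.9% of all genes with any count). For none did the genotypes separate (9.74% of all tested genes on the higher side), since fx3 sat at the wt/wt level each time. Pecam1 (chromosome 11, 106654217 to 106750628, minus strand, GRCm38), which encodes the adhesion protein CD31, gave 30.2, 26.6 and 34.4 CPM in wt/wt and 67.0, 53.2 and 32.2 CPM in fx/fx. The mean went from 30.4 ± 3.91 to 50.8 ± 17.5 CPM, 1.67-fold (log2 0.74, SE 0.28, edgeR unadjusted p = 0.0305, adjusted p = 0.302). Cdh5 (chromosome 8, 104101625 to 104144511, plus strand) measured 30.7, 28.1 and 31.8 CPM against 60.1, 54.7 and 31.7 CPM. Apart from fx1 and fx2, the libraries lay between 28.1 and 31.8 CPM (0.69, SE 0.26, edgeR adjusted p = 0.295). Cldn5, the main claudin of endothelial tight junctions, showed the same order with a larger ratio. It gave 2.26, 1.41 and 2.10 CPM in wt/wt and 6.51, 5.81 and 2.08 CPM in fx/fx, a 2.5-fold difference of means (1.32, SE 0.49, edgeR adjusted p = 0.295). Esam and Ptprb, a junction protein and the phosphatase that restrains TIE2 and VE-cadherin signalling, had log2 fold changes of 0.57 and 0.54. Icam2, a ligand for leukocyte integrins, had 0.45, with edgeR adjusted p-values between 0.41 and 0.611 for these 3 genes. Chromosome medians also differed in fx1 for Pecam1 and Icam2 (chromosome 11, -0.38) and for Ptprb (chromosome 10, -0.61).

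Among surface glycoproteins, Eng and Plvap stood above wt/wt in all 3 fx/fx libraries. Eng, the TGF-beta co-receptor endoglin of proliferating endothelium, measured 24.3, 21.4 and 25.8 CPM in wt/wt and 52.0, 45.0 and 28.2 CPM in fx/fx. Its mean was 23.8 ± 2.26 against 41.7 ± 12.2 CPM, 1.75-fold, and fx3 exceeded the highest wt/wt library narrowly (0.81, SE 0.25, edgeR unadjusted p = 0.0133, adjusted p = 0.241). Plvap (chromosome 8, 71497765 to 71511752, minus strand) gave 27.7, 27.7 and 32.5 CPM against 72.9, 52.2 and 40.1 CPM. The ratio of the Plvap means was 1.88 (29.3 ± 2.76 and 55.0 ± 16.6 CPM) with a log2 fold change of 0.91, SE 0.24 and edgeR adjusted p = 0.21, and DESeq2 gave an adjusted p of 0.0467. That DESeq2 call was lost without wt1 (adjusted p = 0.24), wt2 (0.176), wt3 (0.109), fx1 (0.156) or fx2 (0.064), and held without fx3 (0.0032). Cd93, a lectin-like receptor of tumor vessels, was the tightest gene of the group in wt/wt, at 37.1, 37.7 and 38.7 CPM. In fx/fx it spread over 84.2, 63.8 and 29.2 CPM, with fx3 below every wt/wt library (0.64, SE 0.35, edgeR adjusted p = 0.456). Emcn, the venous and capillary sialomucin, had a log2 fold change of 0.77, Clec14a, a lectin-like vessel receptor, 0.75, and Robo4, a guidance receptor that stabilises vessels, 0.58. Their edgeR adjusted p-values were between 0.397 and 0.476, and fx3 lay within or below the wt/wt range for each.

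Promoters were read because the genes were high in the same libraries, and ETS factors such as ERG are known to drive many endothelial genes. The 250 bases before each start in RefSeq's GRCm38.p6 annotation were searched on both strands, and 22 of the 37 listed genes had a window. A gene with more than 1 start held a core if any of its windows did. The ETS core CAGGAAG was present in 8 of the 22 (36.4%) against 12.1% of 27025 genes, and the core CCGGAAG in 0 against 7.83%, both cores sharing the letters GGAAG. The SOX core ACAATG was in 2 (9.09% against 12.2% of genes), the GATA core AGATAA in 2 (9.09% against 11.4%) and the forkhead core GTAAACA in 1 (4.55% against 3.54%). These are letter matches only. The windows below are those of the 8 genes with the match, with Eng as an example without one, and capitals mark CAGGAAG or its reverse complement. For Egfl7 the first of its windows is shown, and its next window also held 1 match. For Erg window 3 is shown, and its windows 1 and 2 held 0 matches. The windows shown for Egfl7 and Erg lie inside the span over which reads of these genes were counted.
Robo4 (chr9:37401722-37401971, plus strand): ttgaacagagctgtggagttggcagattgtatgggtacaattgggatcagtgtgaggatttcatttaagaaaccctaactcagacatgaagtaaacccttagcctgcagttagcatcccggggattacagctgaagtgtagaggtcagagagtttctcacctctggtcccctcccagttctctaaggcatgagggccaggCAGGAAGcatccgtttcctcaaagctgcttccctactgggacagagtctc
Emcn (chr3:137340828-137341077, plus strand): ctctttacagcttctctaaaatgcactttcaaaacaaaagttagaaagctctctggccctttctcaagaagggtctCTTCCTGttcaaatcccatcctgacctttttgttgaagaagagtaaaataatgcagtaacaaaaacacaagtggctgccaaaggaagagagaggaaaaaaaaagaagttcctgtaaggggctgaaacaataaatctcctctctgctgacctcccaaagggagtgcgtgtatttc
Egfl7 (chr2:26580833-26581082, plus strand): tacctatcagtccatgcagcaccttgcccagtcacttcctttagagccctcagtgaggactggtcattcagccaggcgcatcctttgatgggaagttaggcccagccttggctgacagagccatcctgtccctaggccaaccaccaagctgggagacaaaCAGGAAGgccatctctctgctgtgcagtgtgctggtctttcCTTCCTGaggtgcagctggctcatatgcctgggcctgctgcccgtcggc
Rasip1 (chr7:45627287-45627536, plus strand): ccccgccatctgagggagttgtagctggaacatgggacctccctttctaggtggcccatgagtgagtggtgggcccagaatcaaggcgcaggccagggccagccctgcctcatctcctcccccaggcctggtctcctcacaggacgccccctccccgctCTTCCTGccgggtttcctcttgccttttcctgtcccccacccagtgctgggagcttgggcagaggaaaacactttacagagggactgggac
Ackr1 (chr1:173333504-173333753, minus strand): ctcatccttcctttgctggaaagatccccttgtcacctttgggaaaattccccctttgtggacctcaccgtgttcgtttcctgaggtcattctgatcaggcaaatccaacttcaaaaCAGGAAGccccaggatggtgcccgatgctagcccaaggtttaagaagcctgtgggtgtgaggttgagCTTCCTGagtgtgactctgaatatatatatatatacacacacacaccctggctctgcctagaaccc
Erg (chr16:95459349-95459598, minus strand): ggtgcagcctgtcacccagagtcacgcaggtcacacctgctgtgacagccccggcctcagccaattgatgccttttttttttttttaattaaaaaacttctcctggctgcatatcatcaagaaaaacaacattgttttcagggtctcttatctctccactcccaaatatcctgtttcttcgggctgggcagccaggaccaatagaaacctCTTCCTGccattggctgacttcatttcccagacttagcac
Apln (chrX:48034854-48035103, minus strand): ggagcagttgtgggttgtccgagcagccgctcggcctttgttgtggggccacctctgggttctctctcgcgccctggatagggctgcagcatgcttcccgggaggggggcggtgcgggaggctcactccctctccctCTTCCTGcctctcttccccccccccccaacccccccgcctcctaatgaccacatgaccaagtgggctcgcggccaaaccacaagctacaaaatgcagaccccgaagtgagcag
Sele (chr1:164047984-164048233, plus strand): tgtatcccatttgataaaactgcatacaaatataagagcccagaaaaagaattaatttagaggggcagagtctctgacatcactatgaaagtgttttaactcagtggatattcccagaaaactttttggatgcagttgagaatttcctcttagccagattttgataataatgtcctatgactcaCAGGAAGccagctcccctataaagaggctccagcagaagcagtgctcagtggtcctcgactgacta
Eng (chr2:32646345-32646594, plus strand): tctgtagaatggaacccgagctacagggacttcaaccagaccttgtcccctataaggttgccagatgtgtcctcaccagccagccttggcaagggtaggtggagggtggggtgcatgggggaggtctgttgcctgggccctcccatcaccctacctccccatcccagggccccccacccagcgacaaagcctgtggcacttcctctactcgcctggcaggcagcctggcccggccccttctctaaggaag

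Of the 8 genes, Sele was not tested. Robo4, Emcn, Erg, Egfl7 and Rasip1 had log2 fold changes between 0.58 and 0.77, Apln had 0.17 and Ackr1 1.58, and Eng, with 0 matches, had 0.81. Ackr1 and Egfl7 (0.61) each had 2 matches in the window shown, and Ackr1 had passed the filter only through fx/fx. Robo4, for example, measured 8.77, 8.48 and 8.05 CPM in wt/wt and 16.0, 14.6 and 7.27 CPM in fx/fx, with fx3 the lowest of the 6 libraries. Genes with and without the match thus covered overlapping ranges of difference.

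Of the 6 transcription factors, 5 had higher means in fx/fx (49.9% of all genes with any count) and Prox1 a lower one. No factor had separated genotypes (9.74% of all tested genes on the higher side, 9.93% on the lower). Erg, the ETS factor that maintains endothelial identity, gave 3.08, 2.19 and 2.86 CPM in wt/wt and 6, 3.99 and 2.5 CPM in fx/fx (0.62, SE 0.41, edgeR adjusted p = 0.536). The SOXF factors of vessel specification had similar log2 fold changes, 0.68 for Sox7, 0.75 for Sox17 and 0.65 for Sox18, with edgeR adjusted p-values between 0.385 and 0.5. Tal1, a factor shared by blood and endothelial precursors and located on chromosome 4, had 0.38 (edgeR adjusted p = 0.754). Prox1 (chromosome 1, 190118035 to 190170714, minus strand), which specifies lymphatic endothelium and is also expressed in some epithelia, measured 5.80, 1.29 and 4.26 CPM in wt/wt. In fx/fx it measured 1.37, 1.71 and 1.6 CPM, so wt1 and wt3 stood above the remaining 4 libraries and wt2 was the lowest of all. The means were 3.78 ± 2.29 and 1.56 ± 0.173 CPM (-1.28, SE 0.55, edgeR unadjusted p = 0.0493, adjusted p = 0.35). Without wt2, DESeq2 called Prox1 lower.

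**Figure D3:**
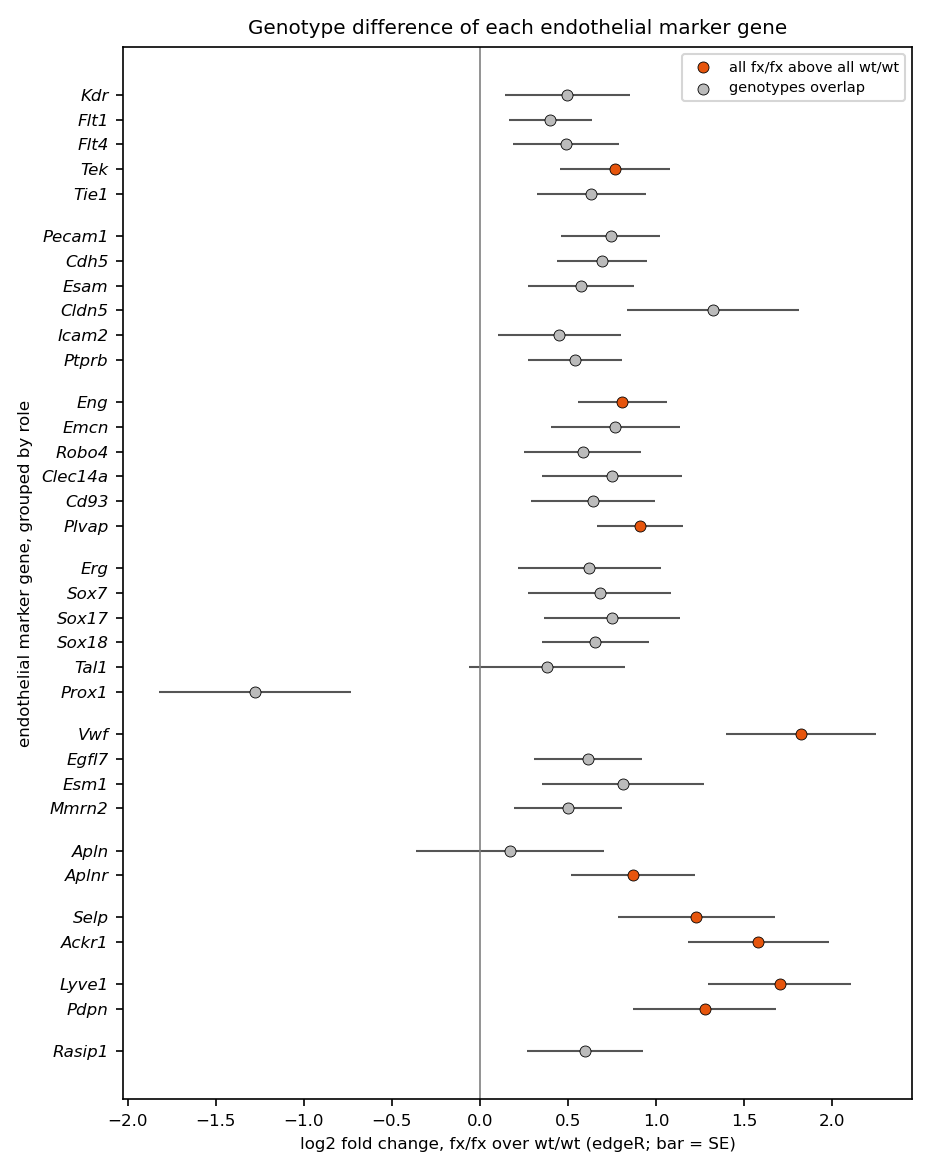
Log2 fold change of fx/fx over wt/wt from edgeR for each of the 34 tested endothelial marker genes, with bars of 1 SE, grouped by role. Orange points mark the 9 genes whose fx/fx libraries all lie above the wt/wt libraries, with Vwf farthest to the right at 1.83 and Prox1 farthest to the left at -1.28.

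Vwf had the largest log2 fold change of the 34 tested genes. It lies at chromosome 6, 125546774 to 125686679 (plus strand), and encodes von Willebrand factor, the clotting glycoprotein stored by endothelium of larger vessels and by platelets. It measured 2.97, 2.05 and 1.29 CPM in wt/wt and 9.41, 7.90 and 5.07 CPM in fx/fx, with fx3 well above every wt/wt library. The mean was 2.1 ± 0.841 against 7.46 ± 2.2 CPM, 3.55-fold (1.83, SE 0.42, edgeR unadjusted p = 0.003, adjusted p = 0.185, DESeq2 adjusted p = 0.00172). The DESeq2 call for Vwf held without each library in turn. Of 12 platelet and megakaryocyte genes, 4 passed the filter, and Gp1bb had 0 counts in all libraries. Of these 4, 2 had a log2 fold change above 0 (49.6% of all tested genes) and 2 below, with a median of 0.52. Pf4, the platelet chemokine, measured 1.17, 1.21 and 0.917 CPM in wt/wt and 2.05, 3.35 and 1.45 CPM in fx/fx (1.05, SE 0.42, edgeR adjusted p = 0.321). The summed level of the 12 ranged from 171.6 to 241.4 CPM in wt/wt and from 84.3 to 193.6 CPM in fx/fx. Most of that sum was Itgb3, an integrin also found on other cells, with means of 205 and 147 CPM, and the part of platelets in the Vwf difference was not tested.

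The other secreted genes followed fx1 and fx2. Esm1 gave 17.1, 19.1 and 27.4 CPM in wt/wt and 59.3, 37.6 and 15.0 CPM in fx/fx, so that fx/fx held both the highest and the lowest library (0.81, SE 0.46, edgeR adjusted p = 0.471). Egfl7, a matrix-bound vessel factor, had a log2 fold change of 0.61 and Mmrn2, an endothelial matrix protein that binds CD93, 0.50, with edgeR adjusted p-values of 0.417 and 0.509. Mmrn1, a multimerin of platelets and of lymphatic endothelium, did not pass the filter, with 9, 1 and 2 counts in wt/wt and 32, 32 and 9 counts in fx/fx. The highest wt/wt library and the lowest fx/fx library thus held 9 counts each. Apln, the ligand of the apelin receptor made by tip cells, varied within both genotypes, at 15.9, 33.8 and 17.5 CPM and at 24.4, 41.9 and 9.36 CPM (0.17, SE 0.53, edgeR adjusted p = 0.92). Its receptor gene Aplnr was above wt/wt in every fx/fx library, with 5.89, 5 and 3.34 CPM against 6.77, 11.7 and 7.59 CPM (0.87, SE 0.35, edgeR unadjusted p = 0.041, adjusted p = 0.328). Aplnr lies on chromosome 2, where the median gene was 0.43 higher in fx2 on the log2 scale, as do Eng, Cd93, Sox18 and Egfl7.

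Genes of venules were low, and higher in all 3 fx/fx libraries for Ackr1 and Selp. Ackr1, the atypical chemokine receptor of venular endothelium and red cells, measured 0.221, 0.201 and 0.218 CPM in wt/wt and 0.508, 0.803 and 0.63 CPM in fx/fx. The ratio of means was 3.03 (1.58, SE 0.40, edgeR unadjusted p = 0.00487, adjusted p = 0.193, DESeq2 adjusted p = 0.106). Because Ackr1 passed the filter only through fx/fx, these values are descriptive. Selp, the stored P-selectin of venules and platelets, gave 0.554, 0.67 and 0.48 CPM against 1.20, 1.98 and 0.824 CPM, 2.35-fold (1.23, SE 0.45, edgeR adjusted p = 0.289). The erythroid list, which bears on Ackr1, was also higher, its summed level ranging from 119.5 to 297.7 CPM in wt/wt and from 535.8 to 628.7 CPM in fx/fx. On chromosome 1, where Ackr1, Selp, Sox17 and Prox1 lie, medians were 0.36, 0.22 and 0.53 in the fx/fx libraries and -0.32 in wt2. The part of either in these differences was not tested. Sele, the cytokine-induced E-selectin, had 8, 4 and 11 counts in wt/wt and 12, 10 and 2 in fx/fx, and no difference was detectable at this depth.

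Both lymphatic surface markers were higher in every fx/fx library, in contrast to Prox1. Lyve1 (chromosome 7, 110850607 to 110863239, minus strand), the hyaluronan receptor of lymphatic endothelium and of some tissue macrophages, gave 1.02, 0.87 and 1.35 CPM in wt/wt and 2.46, 4.90 and 3.22 CPM in fx/fx. Its mean was 1.08 ± 0.247 against 3.53 ± 1.25 CPM, 3.27-fold (1.70, SE 0.41, edgeR unadjusted p = 0.00342, adjusted p = 0.185, DESeq2 adjusted p = 0.00316). The DESeq2 call for Lyve1 held without each library in turn. Of the macrophage genes, Cd163, a scavenger receptor of tissue macrophages, measured 2.28, 1.54 and 2.53 CPM against 5.32, 6.85 and 4.75 CPM (1.41, SE 0.35, edgeR adjusted p = 0.185, DESeq2 adjusted p = 0.00239). Mrc1, the mannose receptor found on both cell types, gave 14.9, 17.6 and 12.5 CPM against 25.0, 40.3 and 17.1 CPM, with overlap between fx3 and wt2 (0.87, SE 0.33, edgeR adjusted p = 0.305). Over the whole macrophage list 8 of 12 genes had a log2 fold change above 0 (49.6% of all tested genes) and 4 below. DESeq2 called 1, Cd163, higher (3.01% of all genes). The median was 0.05, and the summed level ranged from 500.0 to 590.0 CPM in wt/wt and from 339.7 to 768 CPM in fx/fx.

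Pdpn, which encodes podoplanin of lymphatic endothelium, fibroblasts and basal epithelium, measured 0.664, 1.29 and 0.895 CPM in wt/wt and 2.07, 2.94 and 1.92 CPM in fx/fx. Its genotypes did not overlap and the ratio of means was 2.43 (1.28, SE 0.41, edgeR unadjusted p = 0.0147, adjusted p = 0.243, DESeq2 adjusted p = 0.0567). Within fx/fx the order of its libraries, with fx2 highest, was also that of the fibroblast list, whose mean log2 level relative to wt/wt was 1.47, 1.81 and 0.90 in fx1, fx2 and fx3. The macrophage, lymphocyte, mast cell and ligand lists had that order too. So did the medians of chromosome 4, where Pdpn lies (-0.70, -0.12 and -0.82 in fx1, fx2 and fx3). Of the 12 fibroblast genes 11 had a log2 fold change above 0 (49.6% of all tested genes) and DESeq2 called 8 higher (3.01%). The part of macrophages in the Lyve1 difference was not tested. Nor was that of fibroblasts, other cell types or the chromosome shift in the Pdpn difference.

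A separate measure set each remaining gene against the general endothelial level of its own library, since the libraries differed in that level. The reference was the mean log2 CPM of 8 pan-endothelial genes from the list (Pecam1, Cdh5, Esam, Tek, Emcn, Clec14a, Robo4 and Egfl7), and 26 genes were compared with it. Several receptors and transcription factors stayed close to the reference, as the plot of relative levels shows. The relative difference was -0.16 for Kdr, -0.04 for Tie1, -0.09 for Erg, -0.03 for Sox18 and 0.002 for Esm1, each smaller than the SD within a genotype. Other genes of these groups departed further, such as Flt4 (-0.18) and Tal1 (-0.31), both with overlapping genotypes. The junction genes compared had -0.09 (Ptprb), -0.20 (Icam2) and 0.54 (Cldn5). Genotypes did not overlap for 4 genes on the higher side, Vwf, Ackr1, Plvap and Eng, against 1.54% of all genes measured the same way. Of these, Ackr1 had passed the filter only through fx/fx. The margin was narrow for Ackr1 (-5.09 in fx1, -5.13 in wt2) and for Plvap (1.717 in fx2, 1.709 in wt3). With Pecam1 and Cdh5 alone as the reference, 2 of these, Vwf and Eng, were still separated, and Plvap and Ackr1 were not. Both references held genes on chromosomes with shifted medians. Pecam1 lies on chromosome 11 (-0.38 in fx1) and Tek on chromosome 4 (-0.70 in fx1 and -0.82 in fx3). Eng and the reference gene Egfl7 lie on chromosome 2 (0.43 in fx2). The part of these shifts in the relative differences was not tested. Flt1 was the 1 gene separated on the lower side, with a relative difference of -0.26, where 28.6% of all genes were. Relative to the reference, Vwf measured -1.65, -2.04 and -2.90 log2 units in wt/wt and -1.0, -1.0 and -0.97 in fx/fx, a difference of 1.21. The 3 fx/fx libraries, fx3 included, lay close together in this ratio, and the 3 wt/wt libraries spread over more than 1 log2 unit. The relative difference was 0.77 for Ackr1, 0.24 for Plvap and 0.14 for Eng. Lyve1 (1.00), Pdpn (0.64), Cldn5 (0.54) and Selp (0.47) had overlapping genotypes on this scale. Prox1 was lowest at -1.64, also with overlap. Each of the 4 higher genes and Flt1 had an exact 2-sided permutation p of 0.1, the smallest that 3 against 3 libraries can give, and a Benjamini-Hochberg adjusted p of 0.52 over the 26 genes.

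**Figure D4:**
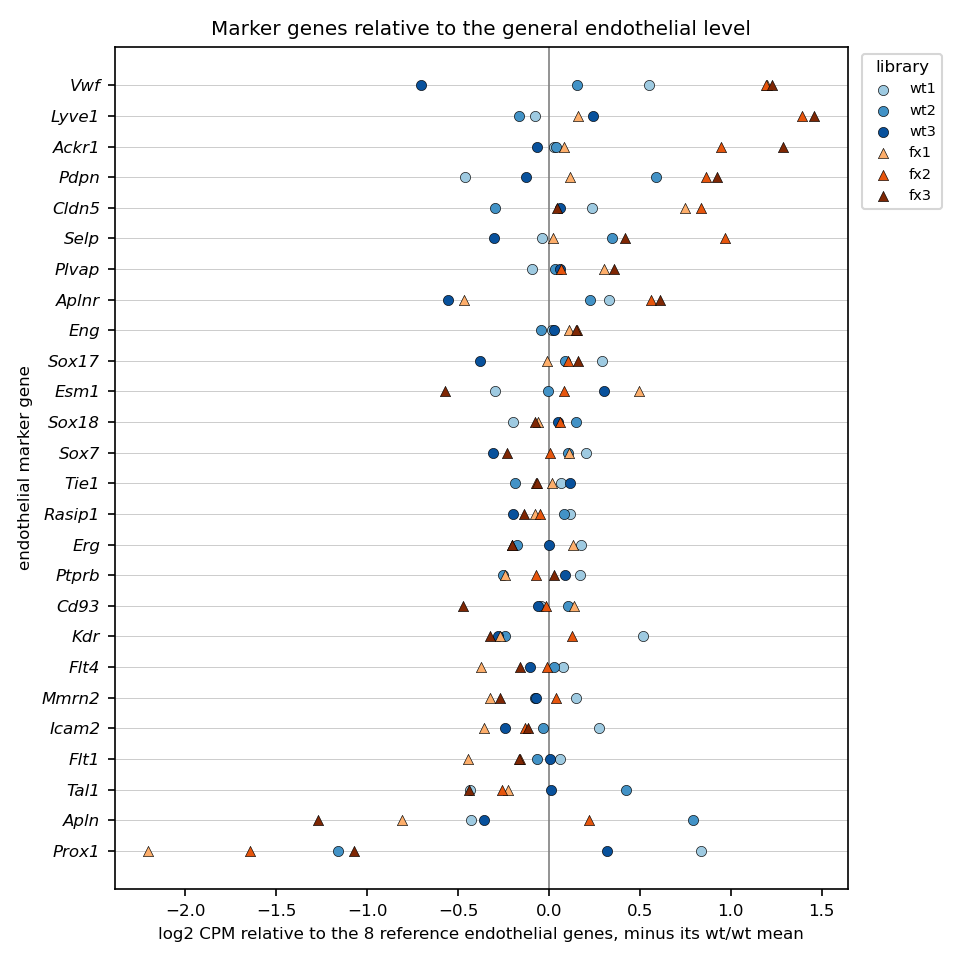
Log2 CPM of 26 endothelial marker genes relative to the mean of 8 pan-endothelial reference genes in the same library, minus the wt/wt mean of that ratio (circles wt/wt, triangles fx/fx). Vwf is at the top with all fx/fx libraries together near 1.2, Prox1 at the bottom, and several receptor and transcription factor genes lie near 0.

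The endothelial genes outside the list followed the same libraries. Of 20 further endothelial genes, 17 had a log2 fold change above 0 (49.6% of all tested genes) and 3 below, and 4 were separated on the higher side (9.74% of all). The median was 0.54, and 0.26 without fx1. Their mean log2 level relative to wt/wt was 0.77, 0.59 and -0.15 in fx1, fx2 and fx3. Cav1, the caveolae protein abundant in endothelium and adipocytes, measured 18.3, 18.2 and 23.6 CPM in wt/wt and 59.5, 50.2 and 26.6 CPM in fx/fx (1.18, SE 0.31, edgeR adjusted p = 0.203, DESeq2 adjusted p = 0.0274). It was the 1 gene of the 20 that DESeq2 called. Heg1, a receptor of the junctional CCM complex, gave 73.0, 68.1 and 91.3 CPM against 167, 97.4 and 157 CPM (0.86, SE 0.24, edgeR adjusted p = 0.217). In Heg1, fx3 stood near fx1 and above all wt/wt libraries. Ramp2, a subunit of the adrenomedullin receptor, gave 3.17, 3.15 and 3.73 CPM against 6.62, 5.78 and 4.68 CPM (0.77, SE 0.30, edgeR adjusted p = 0.314). Adgrl4, an adhesion receptor of angiogenic endothelium, gave 7.77, 8.82 and 9.52 CPM against 25.8, 16.3 and 8.48 CPM (0.96, SE 0.40, edgeR adjusted p = 0.335).

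Among the ligands of the VEGF and angiopoietin families, 7 of 8 were tested and 5 had a log2 fold change above 0 (49.6% of all tested genes). The median was 0.36, but 0.86 without wt2, 0.72 without fx3 and 0.22 without fx2. None had separated genotypes and 0 were at an unadjusted p under 0.05 by edgeR, and DESeq2 called 0. Vegfa, the main ligand of KDR, ran from 69.0 to 170.2 CPM in wt/wt and from 80.9 to 238 CPM in fx/fx, with fx2 highest (0.55, SE 0.45, edgeR adjusted p = 0.629). Angpt2, the angiopoietin of remodelling vessels, gave 8.30, 13.2 and 13.1 CPM against 41.3, 31.7 and 7.68 CPM, again high in fx1 and fx2 and lowest in fx3 (1.22, SE 0.55, edgeR adjusted p = 0.372). Vegfd, a ligand of lymphatic growth, had a log2 fold change of 1.10 and Vegfb 0.31, with edgeR adjusted p-values of 0.485 and 0.533.

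Of 12 arterial, venous and Notch genes, 8 had a log2 fold change above 0 (49.6% of all tested genes), 5 were separated on the higher side (9.74%), and the median was 0.68 (0.38 without fx1). Their summed level was carried by Hey1, Ephb4 and Notch1, whose means were lower in fx/fx, and ranged from 1060.1 to 1259 CPM in wt/wt and from 729 to 1161 CPM in fx/fx. Notch4, the Notch receptor of endothelium, measured 12.4, 10.8 and 12.9 CPM against 45.6, 19.3 and 20.8 CPM (1.25, SE 0.35, edgeR adjusted p = 0.217, DESeq2 adjusted p = 0.0367). It was the 1 gene of these that DESeq2 called. Jag1, a Notch ligand, gave 3.61, 4.87 and 3.51 CPM against 15.4, 7.65 and 5.21 CPM (1.24, SE 0.44, edgeR adjusted p = 0.278). In both Notch4 and Jag1, fx1 was far above the other fx/fx libraries. Gja5, an arterial connexin, had a log2 fold change of 0.99 and Efnb2, the arterial ephrin, 1.34, with edgeR adjusted p-values of 0.34 and 0.354. Among 6 genes of lymphatic growth, 5 were tested and each had a log2 fold change above 0 (49.6% of all tested genes). Foxc2, a factor of lymphatic valves, gave 0.487, 0.491 and 0.677 CPM against 1.11, 1.18 and 2.98 CPM (1.66, SE 0.51, edgeR adjusted p = 0.234). Reln, a secreted guidance protein made by lymphatic endothelium, had 2.10, Adamts3, the protease that activates VEGF-C, 0.98 and Nrp2, its co-receptor, 0.68. Their edgeR adjusted p-values were 0.237, 0.3 and 0.408, DESeq2 called 0 of the 5, and the median was 0.98.

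Markers of other cell types also differed between the libraries. The 11 pericyte genes, of the contractile cells that wrap capillaries, had a median log2 fold change of 0.86, with mean log2 levels relative to wt/wt of 1.1, 0.80 and 0.39 in fx1, fx2 and fx3. Their summed level ranged from 256.3 to 362.9 CPM in wt/wt and from 391.8 to 498.7 CPM in fx/fx. The 12 fibroblast genes had a median of 1.5, summing to between 304.3 and 524.3 CPM in wt/wt and between 846 and 1537 CPM in fx/fx. The 10 adipocyte genes had a median of 2.48 and mean log2 levels of 2.02, 3.45 and 2.33, with fx1 lowest, summing to between 10.8 and 63.6 CPM in wt/wt and between 91.9 and 305.1 CPM in fx/fx. The luminal epithelial genes had a median of 0.09 over 11 genes and summed to between 4127 and 4927 CPM in wt/wt and between 4186 and 5420 CPM in fx/fx. The 7 tested mast cell genes had a median of 2.12, but their list summed to between 622 and 1381 CPM in wt/wt and between 563 and 736 CPM in fx/fx. That sum was almost all Kit, which luminal progenitor cells also express, with means of 1010.2 and 633 CPM. The other 6 had wt/wt means of at most 0.28 CPM. The filter needed about 0.226 CPM in at least 3 libraries, so some of these genes may have passed through fx/fx. With no filter the mast cell median was 2.19. Medians were 1.19 for 7 erythroid genes, 0.97 for 10 basal and myoepithelial genes and -0.29 for 8 lymphocyte genes. Pericyte and fibroblast lists were, like the endothelial list, lowest in fx3 among fx/fx. So were the basal, mast cell, macrophage, lymphocyte and platelet lists, but not the adipocyte, erythroid and luminal lists. The macrophage list stood at 0.40, 0.66 and -0.42 in fx1, fx2 and fx3. For the endothelial, pericyte and fibroblast lists the mean log2 level in fx3 still exceeded the highest wt/wt library. It was 0.13 against 0.08 for the endothelial list, 0.39 against 0.31 for pericytes and 0.90 against 0.24 for fibroblasts. The part of tissue composition in the endothelial differences was not tested.

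**Figure D5:**
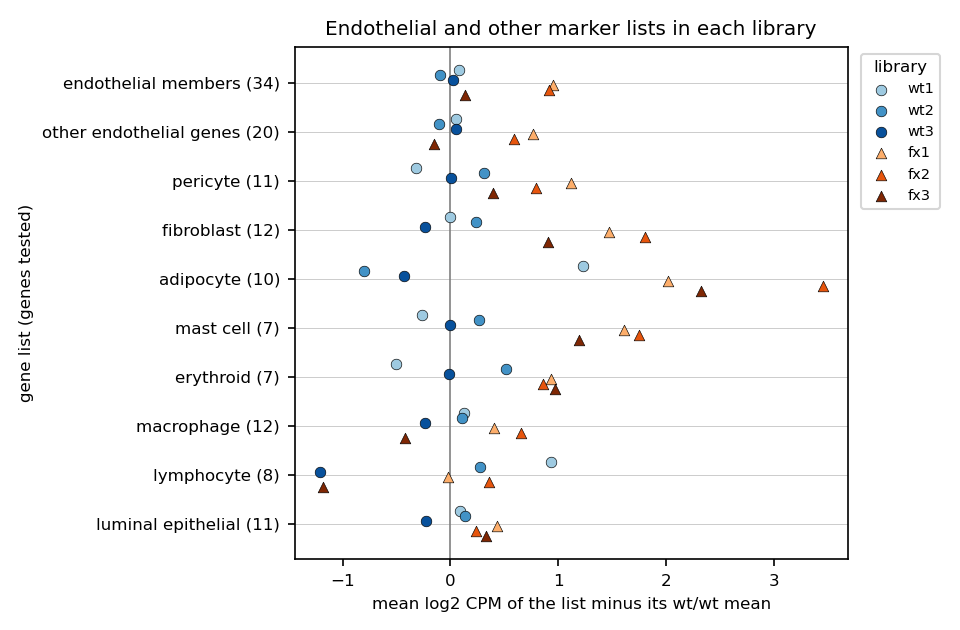
Mean log2 CPM of 10 marker gene lists in each library, minus the wt/wt mean of the list, with the number of genes tested in parentheses (circles wt/wt, triangles fx/fx). The endothelial lists are far above wt/wt only in fx1 and fx2. In fx3 the endothelial members stand at 0.13, just above the highest wt/wt library (0.08), and the other endothelial genes at -0.15. The fibroblast, mast cell and adipocyte lists are above wt/wt in all 3 fx/fx libraries, as are the pericyte, erythroid and luminal epithelial lists. The mast cell points cover only the genes past the low-count filter, some of which may have passed only through fx/fx.

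Whole-chromosome shifts touched part of the list. On the 11 chromosomes with tested members other than 1, 2, 4, 10 and 11, medians lay between -0.16 and 0.24 in every library. Of the 17 endothelial genes on those chromosomes, 16 had fx1 and fx2 above every wt/wt library, against 15.3% of tested genes on all chromosomes. Their log2 fold changes ran from 0.17 to 1.83 with a median of 0.68, next to 0.67 for the whole tested list. This split was also chosen after the values were seen. The part of chromosome shifts in the endothelial differences was not tested.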

How the data were processed

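Total RNA of 6 tumor libraries was sequenced, per the labels' protocols on Illumina libraries. The deposited values were raw counts of read pairs per gene, made by the authors with featureCounts 1.6.0 on GRCm38 with Ensembl release 93 and strand option 2, per the file headers. The submitters' processing notes name STAR 2.5.1b and featureCounts 1.4.6. Symbols came from GENCODE M21 for 54165 of 54232 identifiers.

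The genotype test was edgeR 4.0.16 under R 4.3.3 (filterByExpr, TMM, robust quasi-likelihood test, 2-sided, Benjamini-Hochberg adjustment over 16752 genes, threshold 0.05). Alternatives used DESeq2 1.42.0, limma 3.58.1 voom, other scalings, no filter, a replicate block and each library left out. The low-count filter needed about 10 counts in at least 3 libraries. CPM used TMM-scaled totals, log2 values a prior count of 2, and errors are SDs unless an SE is named. Chromosome medians used protein-coding genes whose average log2 CPM exceeded 3. The scripts were tested on simulated data. No libraries were identical.

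Named genes were the members, Arhgap31, the 4 genes of smallest p in each other endothelial or ligand list, Vegfa and Angpt2. Library values were due for members with an unadjusted edgeR p under 0.05, a DESeq2 call or separated genotypes and for the main receptors and lymphatic genes. Values of Cd93, Robo4, Erg, Esm1 and Apln, and of Pf4, Cd163 and Mrc1, were added after they were seen. The members and lists were chosen with earlier results of these data known.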

Additional observations from a re-analysis of the deposited data

How the results depend on the processing

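With 3 libraries per genotype the tests resolve only large differences. The count of genes called at an adjusted p under 0.05 was 0 by edgeR, 831 by DESeq2 and 38 by edgeR with no low-count filter, and leaving out 1 library gave 0 to 2 by edgeR and 406, 622, 558, 528, 1738 and 864 by DESeq2 (without wt1, wt2, wt3, fx1, fx2 and fx3). Endothelial genes called were 0 by edgeR and 3 by DESeq2, and 0 by edgeR with any 1 library left out and 3, 4, 2, 2, 2 and 13 by DESeq2 in the same order (DESeq2 without 1 library was added after the data were seen). Higher endothelial genes at an unadjusted p under 0.05 numbered 12, or 7 with the replicate block and 6 to 31 with 1 library left out, most without fx3. Same-numbered libraries correlated at -0.08, -0.09 and 0.06 in their deviations from the genotype means and not each best with its own number, so the numbers were not taken to pair samples. The median log2 fold change of the endothelial genes was positive under every alternative run, from 0.40 (without fx1) to 0.93 (without fx3). Apln reversed without wt1 (-0.03) or fx2 (-0.41), ranging up to 0.59. Arhgap31 passed by DESeq2 (-2.40). Genes separated relative to the reference numbered 5, or 3 against Pecam1 and Cdh5 alone (Vwf, Eng and Flt1) and 6 to 10 with 1 library left out. With 1 library left out, list medians ranged from 0.26 to 0.78 for the other endothelial genes, 0.22 to 0.86 for the ligands, 0.04 to 0.24 for luminal genes, 0.38 to 0.75 for arterial, venous and Notch genes, 0.74 to 1.28 for lymphatic growth, 1.67 to 3.96 for adipocyte, 0.99 to 1.57 for erythroid, 1.82 to 2.33 for mast cell and 0.83 to 1.22 for basal genes. Macrophage medians ran from -0.17 to 0.30, reversing without wt3 (-0.10), fx1 (-0.02) and fx2 (-0.17). Lymphocyte medians ran from -0.76 to 0.16, reversing without wt1 (0.16) and fx3 (0.12). Without the filter the platelet median was 1.21. The causes were not tested.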
